A study of Mus musculus with 6 samples.

Results

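The insulin-like growth factor 1 (IGF1) system was examined through 10 genes in livers of mice with and without ARSB: Igf1, its receptor gene Igf1r, Igfals, and the binding protein genes Igfbp1 to Igfbp7. The genes were chosen by name, and each was read by the brightest probe set, by mean over all 6 arrays, that carries exactly 1 gene symbol; each of the 10 had a single such probe set, of 19938 genes with one. Arylsulfatase B (ARSB) acts in lysosomes, where it takes the 4-sulfate off the end of dermatan sulfate and chondroitin 4-sulfate chains. The comparison was of 3 homozygous ARSB-null mice, from a colony bred on the C57BL/6J background, with 3 C57BL/6J controls, all male, untreated and 12 weeks of age, with 1 array of hepatic tissue per mouse. Loss of ARSB was not restricted to a cell type, the feeding state before harvest is not given in the sources used here, and the controls are not stated to be littermates, so genotype and colony cannot be told apart. Mice are named by group and by the number in their labels, which is 4, 5 or 6 in both groups.

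The liver is the main source of circulating IGF1, which growth hormone induces in hepatocytes through its receptor, JAK2 and STAT5B. Most IGF1 in blood is carried in a ternary complex with IGFBP3 and the acid-labile subunit, the product of Igfals, and the other binding proteins carry smaller pools of IGF, limit its access to the IGF1 receptor or act in the matrix. Hepatocytes make IGF1, the acid-labile subunit and IGFBP1, IGFBP2 and IGFBP4, whereas non-parenchymal cells are the main hepatic source of IGFBP3. In whole liver, fewer cells of a type and less RNA per cell cannot be told apart.

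The deposited values are log2 signals, so a difference of 1 is a doubling. Signal levels of different genes are not compared with each other because probe sets differ in their response. Differences are ARSB-null minus control, with the standard error (SE), 95% interval and adjusted p from limma over all 35556 probe sets, and the threshold was an adjusted p of 0.05. Array medians were between 6.50 and 6.60. Arsb itself had log2 signals of 7.63, 7.46 and 7.64 in ARSB-null and of 10.21, 10.23 and 10.21 in control liver (6.23-fold lower, adjusted p = 0.000639 from limma). These are values of the brighter of its 2 probe sets with 1 symbol, and the other is not shown here. The 10 hepatocyte markers measured of 12 listed were bright, with a mean log2 signal of 13.45 to 13.53 in ARSB-null and 13.39 to 13.49 in control liver. Both arrays numbered 4 stood apart on the first principal component, which held 39.7% of the variance, and values of Igfbp2 and Igfbp3 are also given without them.

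Of the 10 genes, Igfbp2 and Igfbp3 had the largest differences, both with 1.77-fold more signal in ARSB-null liver and with every ARSB-null liver above every control liver. Neither passed the threshold over all probe sets. Igf1, Igfals, Igfbp4 and Igfbp7 had differences of 0.09 or less in size. Igf1r had a smaller difference in the direction of Igfbp2, and Igfbp5 and Igfbp6 varied most between ARSB-null mice.

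**Figure D1:**
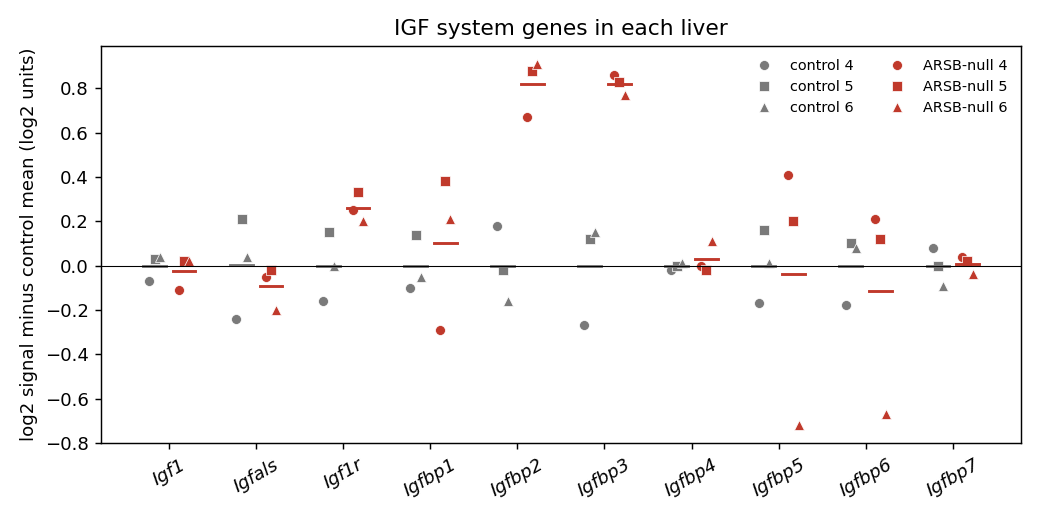
Log2 signal minus the mean of the 3 control livers (vertical axis) for 10 genes of the IGF1 system (horizontal axis); each point is 1 liver, with control in grey and ARSB-null in red, symbols give the mouse number and bars are group means. Igfbp2 and Igfbp3 lie above all controls in all 3 ARSB-null livers, and Igfbp5 and Igfbp6 are low in the ARSB-null mouse numbered 6.

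In the fit over all probe sets, limma called 0 of the 10 genes in either direction, where it called 0.0197% of all probe sets (0.00562% higher and 0.0141% lower). At an unadjusted p of 0.05 or less, 2 of the 10 were higher (Igfbp2 and Igfbp3) and 0 lower, against 2.75% of all probe sets higher. The analysis of variance named in the methods gave the same counts, 0 adjusted and 2 unadjusted. The ARSB-null livers were all above the controls for 3 genes (Igfbp2, Igfbp3 and Igf1r), which was so for 5.14% of all probe sets and for 4.73% of genes by their brightest probe set. They were all below the controls for 0 genes, against 6.78% of all probe sets. The median difference of the 10 genes was 0.02, with 6 means higher and 4 lower, and over 19938 genes the median was -0.02. The family was picked with results of these arrays known, so these counts describe it and test nothing about it.

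**Figure D2:**
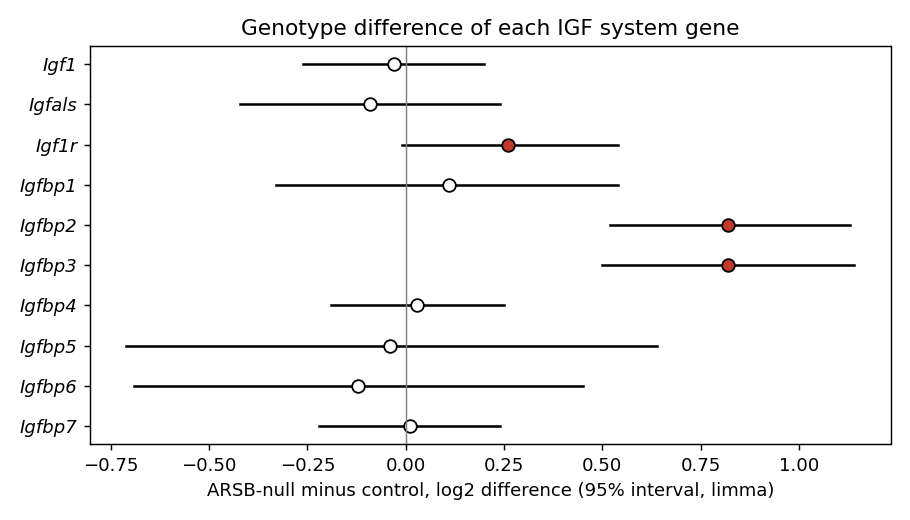
ARSB-null minus control log2 difference (horizontal axis) of each gene with its 95% interval from limma; red points are genes whose groups do not overlap. The intervals of Igfbp2 (0.52 to 1.13) and Igfbp3 (0.50 to 1.14) lie above 0 before adjustment, and that of Igfbp5 is the widest (-0.71 to 0.64).

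Igf1 encodes the growth factor. For mice numbered 4, 5 and 6 the log2 signal was 12.27, 12.40 and 12.40 without ARSB and 12.31, 12.41 and 12.42 in the controls. The groups overlapped, and both mice numbered 4 had the lowest value of their group. ARSB-null and control means differed by -0.03 (SE 0.10, adjusted p = 0.994 from limma), and the 95% interval of the ratio of ARSB-null to control was 0.836 to 1.15.

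Igfals, which encodes the acid-labile subunit that joins IGF1 and IGFBP3 in the circulating complex, had log2 signals of 10.02, 10.05 and 9.87 in ARSB-null and 9.83, 10.28 and 10.11 in control liver. The control values spanned more than the ARSB-null values and enclosed them. Their means differed by -0.09 on the log2 scale (SE 0.14, adjusted p = 0.993 from limma), with a 95% interval of the ratio from 0.748 to 1.18.

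Igf1r encodes the tyrosine kinase receptor through which IGF1 signals and is known to be scarce in adult hepatocytes. Log2 signals of Igf1r were 6.83, 6.91 and 6.78 in ARSB-null and 6.42, 6.73 and 6.58 in control liver. The values lay near the array medians and did not overlap, though the lowest ARSB-null and the highest control liver were 6.78 and 6.73. Igf1r differed by 0.26 on the log2 scale (SE 0.11, 1.20-fold, adjusted p = 0.843 from limma), and within the mouse numbers it was 0.41, 0.18 and 0.20.

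Igfbp1 encodes a hepatocyte binding protein whose transcription insulin represses and fasting induces. Log2 signals of Igfbp1 were 10.16, 10.83 and 10.66 in ARSB-null and 10.35, 10.59 and 10.40 in control liver. The ARSB-null mice held both the lowest and the highest value of all livers. Igfbp1 differed by 0.11 on the log2 scale (SE 0.18, adjusted p = 0.993 from limma), and it became -0.03 without the ARSB-null mouse numbered 5.

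Igfbp2 encodes a binding protein that carries an integrin-binding motif and, like IGFBP1, is made by hepatocytes. Log2 signals of Igfbp2 were 11.73, 11.94 and 11.97 in ARSB-null and 11.24, 11.04 and 10.90 in control liver. All ARSB-null livers lay above all controls, and the groups were nearest in the mice numbered 4. Igfbp2 averaged 11.88 ± 0.14 (SD, n = 3) without ARSB, against 11.06 ± 0.17 (SD, n = 3) with it. This was a log2 difference of 0.82 (SE 0.13; adjusted p = 0.232 from limma), a 1.77-fold ratio with a 95% interval of 1.43 to 2.19. Within the mouse numbers 4, 5 and 6 it was 0.49, 0.91 and 1.08, and with both arrays numbered 4 left out it was 0.99. The exact permutation test (two-sided) gave p = 0.1 for Igfbp2, Igfbp3 and Igf1r alike, the smallest p that 3 mice against 3 allow.

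Igfbp3 encodes the main carrier of IGF1 in blood. Its log2 signal was 9.66, 9.63 and 9.57 in ARSB-null and 8.53, 8.92 and 8.95 in control liver. The ARSB-null values were close together, and the control numbered 4 was the lowest of the 6 livers. Igfbp3 averaged 9.62 ± 0.05 (SD, n = 3) without ARSB, against 8.80 ± 0.23 (SD, n = 3) with it. The difference was again 0.82 on the log2 scale (SE 0.14; adjusted p = 0.245 from limma), a 1.77-fold ratio with a 95% interval of 1.41 to 2.21. Within the mouse numbers 4, 5 and 6 it was 1.13, 0.72 and 0.62, and it was 0.67 with both arrays numbered 4 left out. The mice numbered 4 thus gave the smallest difference of Igfbp2 and the largest of Igfbp3.

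The calls of both genes depended on the fit. With it limited to 21789 probe sets that carry 1 symbol, Igfbp2 (adjusted p = 0.0339 from limma) and Igfbp3 (0.0416) were past the threshold, 2 of the 10 genes against 0.124% of those probe sets called higher. Their unadjusted p was also smaller in that fit (7.47e-05 against 0.000388 for Igfbp2 and 0.000107 against 0.000545 for Igfbp3). With probe sets above the median signal alone, the adjusted p from limma was 0.0944 for Igfbp2 and 0.101 for Igfbp3. With array weights and all probe sets, Igfbp2 alone was past it (adjusted p = 0.0484 from limma), against 0.0394% of probe sets called higher. By p, Igfbp2 stood at place 41 and Igfbp3 at place 60 among those 21789 in the fit over all probe sets. Leaving out each array in turn, with all probe sets tested, left the log2 difference of Igfbp2 between 0.75 and 0.91 (adjusted p 0.21 to 0.711 from limma) and that of Igfbp3 between 0.69 and 0.90 (0.21 to 0.711).

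Set against the other parts of the circulating complex, the difference of Igfbp3 exceeded that of Igf1 by 0.85 on the log2 scale, with no overlap between the 3 ARSB-null and 3 control livers in the array-by-array contrast. It exceeded that of Igfals by 0.91, again without overlap. The difference of Igfbp2 exceeded that of Igfbp1 by 0.72 without overlap. These 3 contrasts, and that of Igfbp2 and Igfbp5 below, were chosen after the values had been seen, and 3 mice against 3 cannot give an exact p under 0.1 for any of them. They set differences of different probe sets against each other, and as probe sets differ in their response, the sizes of the contrasts are uncertain.

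Some of the binding protein genes lie in neighbouring pairs in the RefSeq annotation, Igfbp2 beside Igfbp5 and Igfbp1 beside Igfbp3. The difference of Igfbp2 exceeded that of Igfbp5 by 0.86, with overlap between the groups. The sequences before the transcription starts of Igfbp2 and Igfbp3 are shown because these genes had the largest differences, and that of Igfbp1 because it is the neighbour of Igfbp3 and holds the textbook insulin response element of the family. Each is 250 bases, read 5′ to 3′ toward the start, from RefSeq on GRCm38.p6. Capitals mark matches, on either strand, to CACGTG (the E-box), TCATGTG (the M-box), CAGGT (the MITF motif the study gives), GGGCGG (the GC box bound by Sp1), TGANTCA (AP-1) and CAAAACA (one arm of the insulin response element, bound by FOXO1).
Igfbp2, chr1:72824230-72824479, plus strand: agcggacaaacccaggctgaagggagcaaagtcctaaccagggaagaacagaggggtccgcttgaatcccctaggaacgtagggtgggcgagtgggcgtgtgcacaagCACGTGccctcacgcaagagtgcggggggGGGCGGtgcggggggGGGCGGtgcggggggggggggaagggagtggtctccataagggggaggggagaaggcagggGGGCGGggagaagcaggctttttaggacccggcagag
Igfbp3, chr11:7213924-7214173, minus strand: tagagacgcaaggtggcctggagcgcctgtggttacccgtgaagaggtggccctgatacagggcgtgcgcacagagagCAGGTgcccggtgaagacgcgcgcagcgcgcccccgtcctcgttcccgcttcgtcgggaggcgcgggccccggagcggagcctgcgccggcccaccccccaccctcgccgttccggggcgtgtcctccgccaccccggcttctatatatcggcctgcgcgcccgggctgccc
Igfbp1, chr11:7197537-7197786, plus strand: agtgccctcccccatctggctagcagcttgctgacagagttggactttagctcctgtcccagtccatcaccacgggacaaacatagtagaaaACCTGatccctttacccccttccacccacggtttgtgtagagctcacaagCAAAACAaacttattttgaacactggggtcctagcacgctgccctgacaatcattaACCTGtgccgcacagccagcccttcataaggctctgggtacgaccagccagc
The Igfbp2 sequence held the E-box once and the GC box 3 times, and the Igfbp3 sequence held CAGGT once. The Igfbp1 sequence held CAGGT 2 times, on the minus strand, and CAAAACA once. Of 32851 promoters of the same length, 6.02% held the E-box, 3.25% the M-box, 44.1% CAGGT, 32.7% the GC box, 6.75% the AP-1 site and 5.56% CAAAACA. GC content was 67.2% for Igfbp2, 73.2% for Igfbp3 and 53.2% for Igfbp1, against a median of 52.4%. The table matched all 10 genes with 13 starts, among them a second start of Igfbp2 whose sequence held the AP-1 site once. The matches are descriptions of letters, and the 2 genes with the largest difference shared none of these motifs in the sequences shown.

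Igfbp4, which encodes a binding protein that restrains IGF1 until a pappalysin cleaves it, had log2 signals of 12.78, 12.76 and 12.89 in ARSB-null and 12.76, 12.78 and 12.79 in control liver. The ARSB-null mouse numbered 6 was highest, and the other livers were close together. Igfbp4 differed by 0.03 on the log2 scale (SE 0.09, adjusted p = 0.994 from limma; 95% interval of the ratio 0.877 to 1.19).

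Igfbp7, the low-affinity member of the family made by endothelial cells among others, had log2 signals of 12.25, 12.23 and 12.17 in ARSB-null and 12.29, 12.21 and 12.12 in control liver. In both groups the mouse numbered 4 was highest and that numbered 6 lowest. Igfbp7 differed by 0.01 on the log2 scale (SE 0.10, adjusted p = 0.998 from limma; 95% interval of the ratio 0.859 to 1.18), and centring the arrays on their medians turned its sign (-0.02).

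Igfbp5 encodes a binding protein with affinity for extracellular matrix. Its log2 signal was 8.70, 8.49 and 7.57 in ARSB-null and 8.12, 8.45 and 8.30 in control liver. The ARSB-null mouse numbered 6 was lowest and the ARSB-null mouse numbered 4 highest of the 6 livers. The SD was 0.60 in ARSB-null and 0.17 in control liver, and the log2 difference was -0.04 (SE 0.29, adjusted p = 0.998 from limma; 95% interval of the ratio 0.61 to 1.56).

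Igfbp6, whose product binds IGF2 with preference over IGF1, showed the like pattern. Its log2 signal was 7.66, 7.57 and 6.78 in ARSB-null and 7.27, 7.55 and 7.53 in control liver. The ARSB-null mouse numbered 6 was again lowest. The log2 difference was -0.12 (SE 0.24, adjusted p = 0.993 from limma). Without that mouse the log2 difference was 0.30 for Igfbp5 and 0.16 for Igfbp6, and without the control numbered 5 that of Igfbp5 was 0.04, so these directions rested on single mice.

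Some markers of mesothelial and bile duct cells were low in the same mouse. Over the 8 of 9 listed genes measured, the mean log2 signal was 6.66 to 7.02 in ARSB-null and 6.82 to 6.99 in control liver, with the lowest value in the ARSB-null mouse numbered 6. Among them the mesothelial marker Upk3b was 8.33, 8.02 and 7.12 in ARSB-null and 7.87, 7.97 and 7.76 in control liver. Msln (mesothelin) was 7.29, 7.19 and 6.52 against 7.10, 6.99 and 6.92, and Wt1 was 6.81, 6.88 and 6.47 against 6.70, 6.55 and 6.17. Upk3b, Msln and the bile duct markers Sox9 (8.05) and Krt7 (6.73) were lowest in the ARSB-null mouse numbered 6. Sox9 was not particular to that mouse, as it was lower in all ARSB-null than in all control livers (log2 difference -0.35, adjusted p = 0.626 from limma). The other markers measured were not: Wt1 was lowest in the control numbered 6, and in the ARSB-null mouse numbered 6 Epcam (6.07), Cldn7 (5.92) and Krt19 (6.39) lay within the range of the other livers. Such low values were not limited to these cell types. Of 14 stellate cell and fibroblast genes, Lrat (9.26), Lum (7.58), Pdgfra (7.17) and Rgs5 (8.90) were also lowest in that mouse. Ecm1 (11.40), Des (7.27) and Acta2 (7.40) of the same list were highest in it. The part of any of these cells in the values of Igfbp5 and Igfbp6 was not tested.

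**Figure D3:**
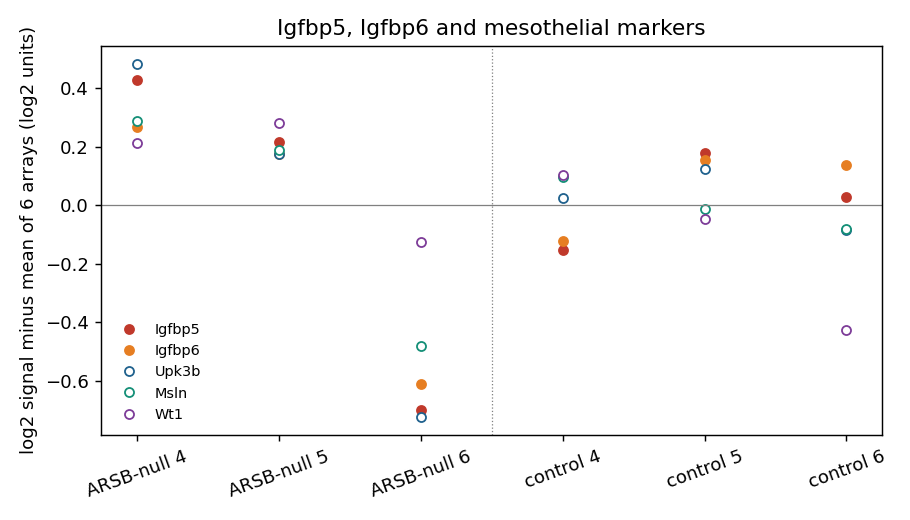
Log2 signal minus the mean of the 6 arrays (vertical axis) in each liver (horizontal axis) for Igfbp5 and Igfbp6 (filled points) and the mesothelial markers Upk3b, Msln and Wt1 (open points). The ARSB-null mouse numbered 6 has the lowest value of Igfbp5 (7.57), Igfbp6 (6.78), Upk3b (7.12) and Msln (6.52), but not of Wt1.

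The marker lists of the cells that could carry Igfbp3 had means that overlapped between the groups. The mean log2 signal of 14 stellate cell and fibroblast genes was 8.63 to 8.76 in ARSB-null and 8.61 to 8.65 in control liver, that of 11 sinusoidal endothelial genes was 9.34 to 9.50 and 9.30 to 9.46, and that of 11 Kupffer cell and macrophage genes was 9.22 to 9.28 and 9.09 to 9.43. Within them Ecm1 (log2 difference 0.52), Stab1 (0.49), Cd68 (0.53) and C1qa (0.39), named after their values were seen, were higher in all ARSB-null than in all control livers, as were Reln (0.24) and Des (0.15). Lyve1 (-0.31) was lower in all of them, and Adgre1 (-0.35) and Csf1r (-0.33) had lower means with overlap, as 8 of the 11 Kupffer cell genes had lower means. None of these genes passed the threshold (adjusted p 0.448 to 0.964 from limma). In the stellate cell and fibroblast list 10 of 14 genes had higher means and 4 lower. Without overlap, 3 genes of that list were higher and 0 lower, against 5.14% and 6.78% of all probe sets. Of the blood cell lists, those of erythroid cells and of neutrophils and monocytes parted the groups, with no gene past the threshold. The mean over 4 measured of 7 erythroid genes was 7.24 to 7.58 in ARSB-null and 7.86 to 8.12 in control liver, and over 7 of 8 neutrophil and monocyte genes it was 5.52 to 5.56 and 5.65 to 5.85. For 8 of 9 lymphocyte genes it was 5.87 to 6.06 and 5.73 to 6.00, with differences in both directions among them. Jchain, of antibody-secreting cells, was at 6.27, 6.34 and 6.10 in ARSB-null and 4.78, 5.20 and 4.83 in control liver (log2 difference 1.30, adjusted p = 0.099 from limma), whereas the B cell genes Cd79a (-0.40, without overlap) and Ms4a1 (-0.49, with overlap) had lower means. Of the 7 neutrophil and monocyte genes measured, 6 had lower means (S100a9 at -0.01), and Camp was at 0.08. The means of that list and of the lymphocyte list lay under the array medians of 6.50 to 6.60 in all livers. So did all values of Jchain, Cd79a and Ms4a1. The part of any of these cells in the values of Igfbp2 and Igfbp3 was not tested.

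Around these 10 genes, 111 further genes of the IGF system were measured, in 10 lists of ligands, receptors, proteases, signalling proteins and regulators. Limma called 0 of the 111 in either direction, and at an unadjusted p of 0.05 or less 5 were higher and 4 lower, against 5.94% of all probe sets in both directions. The analysis of variance called 0, with 6 higher and 5 lower unadjusted. The median log2 difference of the 111 genes was 0.0048, with 56 means higher and 55 lower. Without overlap between the groups, 12 of the 111 were higher and 9 lower in ARSB-null liver. Over all probe sets this was so for 5.14% and 6.78%, and single genes without overlap named below are to be read beside these shares.

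**Figure D4:**
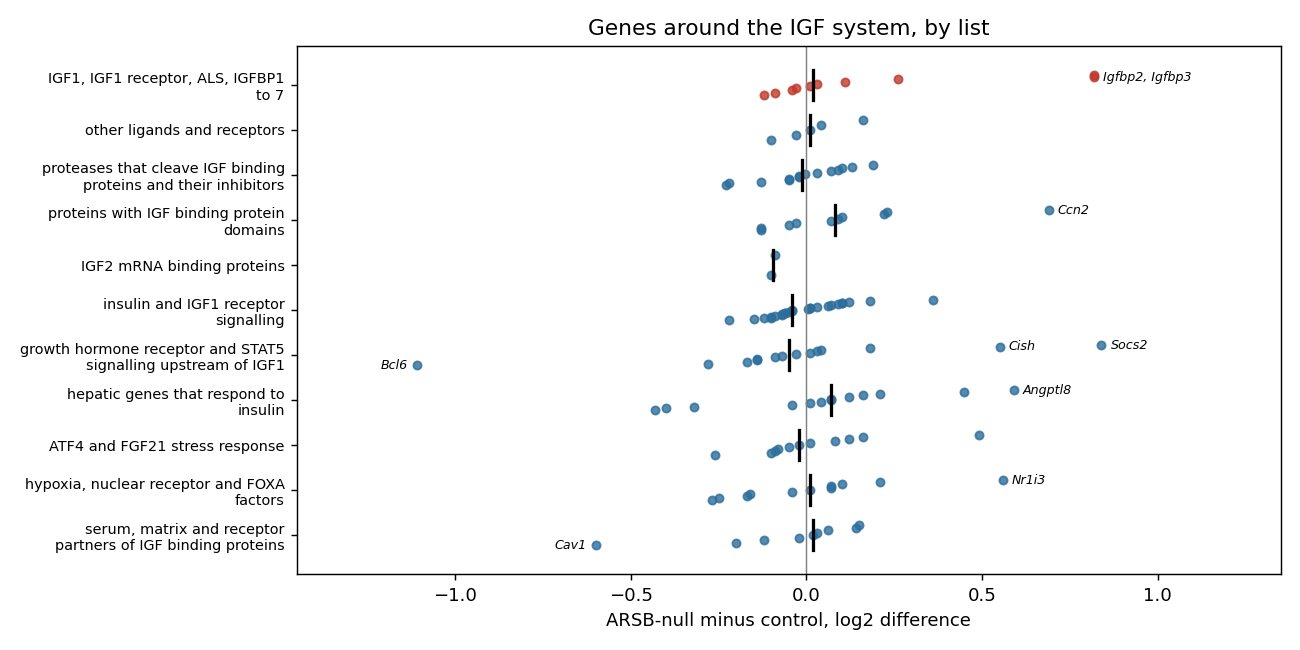
ARSB-null minus control log2 difference (horizontal axis) of the 10 genes described above (red) and of the genes of 10 lists around them (blue); each point is a gene, black bars are medians of the list, and genes with a difference of about 0.55 or more in size are named. Apart from Igfbp2 and Igfbp3, the points farthest from 0 are Bcl6 (-1.11), Socs2 (0.84), Ccn2 (0.69) and Cav1 (-0.60), none of which passed the threshold.

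Of the other ligands and receptors, 5 of 6 genes were measured and lay between -0.10 and 0.16. Igf2, the fetal IGF, had a log2 difference of 0.01, and Igf2r, the receptor that clears IGF2, of -0.03. The insulin receptor gene Insr was at 11.19, 11.30 and 11.38 in ARSB-null and 11.31, 11.01 and 11.07 in control liver, with overlap (log2 difference 0.16, adjusted p = 0.973 from limma). Its other probe set gave 0.26. Insrr (-0.10) and Ins2 (0.04) were both under the array medians in all livers.

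Of 14 proteases that cleave binding proteins and their inhibitors, the differences lay between -0.23 and 0.19. Pappa and Pappa2, the pappalysins, had log2 differences of 0.09 and 0.07, and the genes with the smallest p were Stc1 (-0.23), whose product inhibits pappalysins, Mmp2 (-0.22) and the lysosomal protease gene Ctsd (0.19), with adjusted p from limma of 0.925 to 0.937. Of the 2 measured IGF2 mRNA binding proteins, Igf2bp3 was at -0.10 and Igf2bp1 at -0.09 (0.21 on its other probe set). By their brightest probe sets, Pappa, Pappa2, Stc1, Igf2bp3 and Igf2bp1 were under the array medians in all livers.

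Among 10 genes whose proteins carry an IGF binding protein domain, Ccn2 (connective tissue growth factor, a YAP and TGF-beta target) had the largest difference. Its log2 signal was 8.81, 8.50 and 9.0 in ARSB-null and 7.93, 8.07 and 8.22 in control liver. The groups did not overlap, and the log2 difference was 0.69 (SE 0.15, adjusted p = 0.451 from limma). Its relative Ccn1 had a log2 difference of 0.23, also without overlap, and Esm1 one of 0.22 with overlap, under the array medians in all livers.

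Upstream of Igf1, the growth hormone receptor gene Ghr was at 11.36, 11.46 and 11.34 in ARSB-null and 11.35, 11.38 and 11.41 in control liver (log2 difference 0.01), and Stat5b, the transcription factor that induces Igf1, had a log2 difference of 0.18. Socs2, a feedback inhibitor that STAT5B induces, was at 10.98, 10.83 and 10.39 in ARSB-null and 9.73, 9.99 and 9.97 in control liver. All ARSB-null livers lay above the controls, and the log2 difference was 0.84 (SE 0.17, adjusted p = 0.379 from limma), with 0.52 on its other probe set. Cish, another inhibitor induced by STAT5B, was at 6.98, 7.65 and 6.96 in ARSB-null and 6.18, 6.85 and 6.93 in control liver, where the groups came close but did not overlap (log2 difference 0.55, adjusted p = 0.876 from limma). Stat5a was lower in all ARSB-null than in all control livers (log2 difference -0.28, adjusted p = 0.847 from limma). Bcl6, a repressor of STAT5B targets, was at 7.57, 7.44 and 8.46 in ARSB-null and 10.21, 8.41 and 8.20 in control liver, where the control numbered 4 stood far above the others (log2 difference -1.11, SE 0.55, adjusted p = 0.884 from limma). Igf1 (-0.03) and Igfals (-0.09), which the same pathway induces, had differences nearer to none, and the activity of the pathway was not tested. The list of 14 measured genes had a median difference of -0.05.

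Downstream, 25 genes of insulin and IGF1 receptor signalling lay between -0.22 and 0.36, with a median of -0.04. The genes with the smallest p were Tsc1 (0.18, without overlap), Shc1 (-0.22) and Irs1 (0.36, and -0.03 on its other probe set), with adjusted p from limma of 0.894 to 0.923. Of 13 measured hepatic genes that respond to insulin, Srebf1, the lipogenic transcription factor that insulin induces, was at 10.38, 10.25 and 10.48 in ARSB-null and 10.80, 10.91 and 10.71 in control liver (log2 difference -0.43, adjusted p = 0.545 from limma). Cited2, a transcriptional coregulator, differed by -0.40 on the log2 scale (adjusted p = 0.568 from limma), and in both genes all ARSB-null livers lay below the controls. Angptl8, which insulin induces, was at 0.59 with overlap. The median of the list was 0.07, and Irs2, which FOXO1 induces as it does Igfbp1, was at 0.07.

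Of 11 genes of the ATF4 and FGF21 stress response, Trib3, a pseudokinase that binds AKT, was at 7.72, 7.42 and 7.49 in ARSB-null and 7.18, 7.07 and 6.91 in control liver (log2 difference 0.49, adjusted p = 0.568 from limma), without overlap. Sesn2 (-0.26) was lower and Atf3 (0.16) higher in all ARSB-null than in all control livers. Fgf21 was at 0.08 with overlap, under the array medians in all livers. Of 11 hypoxia, nuclear receptor and FOXA factors, Hif1a (-0.25) was lower in all ARSB-null than in all control livers, Nr1i3 (0.56) and Epas1 (0.21) were higher in all, and none passed the threshold (adjusted p 0.811 to 0.851 from limma). Of 9 serum, matrix and receptor partners of the binding proteins, Cav1 (caveolin 1) was at 7.29, 6.86 and 6.51 in ARSB-null and 7.45, 7.58 and 7.42 in control liver (log2 difference -0.60, adjusted p = 0.731 from limma), Lrp1 was at 0.14 and Itgav at -0.12.

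Across the 6 arrays, the genes whose profile was most like that of Igfbp2 were Gm10590, Rhoq, Plxna1, Vsir and Oat, with a root mean square distance of 0.116 to 0.17 between profiles that were centred and divided by their SD, among 11466 genes with a signal above the median. Their log2 differences were 0.27, 0.30, 0.22, 0.28 and 0.51. With 6 arrays so many genes give close matches by number alone, and nothing is drawn from the likeness.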

How the data were processed

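Liver RNA of 3 ARSB-null and 3 control mice was hybridized to Affymetrix mouse gene arrays. Quantile normalization and summarization were done by the authors (RMA and Partek are named in the submitters' processing notes), and each deposited value is the log2 signal of a probe set on an array. Such normalization hides a change shared by most genes, no detection calls were used here, and the number of arrays limits the precision.

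Gene names came from GEO's platform annotation, which gave 1 symbol to 21789 of 35556 probe sets, several to 1621 and did not list 12146. Genotypes were compared in limma 3.58.1 (R 4.3.3; lmFit and eBayes, two-sided, no covariates or filter) with Benjamini-Hochberg adjusted p under 0.05 as the threshold. Alternatives were the analysis of variance of the methods, a replicate block, another prior, array weights, rescaling, fewer probe sets and omission of arrays. The code was tested on simulated data with the estimated spread of each probe set. There the fit called 2 of 50 log2 changes of 0.5, 35 of 50 of 1 and 50 of 50 of 2. A gene that was not called can thus still differ. Genes and lists were chosen with earlier results of these data known. Named were all 10 genes, the 3 genes of each list with the smallest p, and the 5 genes nearest to Igfbp2 in profile. Other genes named (Igf2, Igf2r, Pappa, Pappa2, Ghr, Stat5b, Bcl6, Irs2, Fgf21 and single cell markers) were chosen after their values were seen.

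Each sample is a separate mouse. Deviations from the group means, over probe sets, correlated at 0.396, 0.159 and 0.193 between mice numbered 4, 5 and 6. All were above 0.1, the minimum set, so mice of a number were treated as paired in the block. Between mice of different numbers the correlation was -0.325 to 0.22, with 0.22 for ARSB-null 6 and control 5. Only number 4 thus stood above every pair of different numbers, and the values do not single out the pairs numbered 5 and 6. This pairing comes from the values, as what a shared number means is unstated.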

Additional observations from a re-analysis of the deposited data

How the results depend on the processing

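Igfbp2 and Igfbp3 kept their direction under every alternative run (log2 difference 0.75 to 0.99 and 0.67 to 0.90), and both were past the threshold with probe sets of 1 symbol alone, where the unadjusted p changed as well as the number of tests, and there with the replicate block as well (adjusted p 0.0404 and 0.0335 from limma), a fit chosen after seeing the data. With array weights Igfbp2 alone passed (0.0484; Igfbp3 0.0868). Genes called higher among the 10 were thus 2, 2 and 1 in these fits and 2 at an unadjusted p, against 0. The replicate block, which pairs mice by number, called 0 of the 10 (adjusted p 0.348 from limma for both genes) and changed no call of theirs. Probe sets called higher and lower, 2 and 5 over all probe sets, were 1 and 3 with the replicate block, 27 and 33 with 1 symbol, 43 and 63 with both, 5 higher for signals above the median, 14 and 14 with array weights, 1 higher with medians centred, 1 and 1 by analysis of variance, 978 and 1134 unadjusted, 1 and 0 with both arrays numbered 4 left out (chosen after seeing the data), and 1 higher with 3 to 6 lower without any 1 array; the causes were not tested. Differences near 0 changed sign in 12 of 160 values: Igfbp4 (-0.0027) and Igfbp7 (-0.02) with medians centred, Igfbp7 (-0.02) with repeated quantile normalization, and, without 1 array, Igf1 (-0.06 to 0.02), Igfals (-0.21 to 0.01), Igfbp1 (-0.03 to 0.30), Igfbp4 (-0.01 to 0.05), Igfbp5 (-0.26 to 0.30), Igfbp6 (-0.28 to 0.16) and Igfbp7 (-0.03 to 0.05). Insrr (-0.22 to 0.07 without 1 array; 0.003 without both numbered 4) and Ins2 (-0.07 to 0.14) also changed sign. None of the 10 genes had a further probe set to try in place of its own. Signal over background is not known.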
